A study of Mus musculus with 47 samples.

Results

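Nphs1, Kirrel, Kirrel2 and Kirrel3 were chosen by symbol, as the 4 genes of the nephrin and Kirrel family among the 54532 genes of the deposited tables. They encode nephrin and the 3 nephrin-like proteins of mammals, cell surface proteins of the immunoglobulin superfamily. The choice was made with earlier results of these data in view: Nphs1 and Kirrel2 were already known to be among the genes most reduced in Kir libraries. Their Kir minus WT values below are therefore a description and carry no test, whereas the change with age was tested.

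The libraries were made from polyadenylated RNA of mouse olfactory epithelium at 7 ages between the day of birth (P0) and postnatal day 21 (P21). The Kir mice carry the strain label OIVT;Kir2.1, where Kir2.1 names the potassium channel made from Kcnj2, of the inwardly rectifying kind, and the wild-type mice (WT) carry the strain label C57BL/6J. There were 24 Kir and 23 WT libraries: 4 Kir and 4 WT at P0, 3 and 3 at P3, 3 and 3 at P5, 4 and 4 at P7, 4 and 3 at P10, 3 and 3 at P14 and 3 and 3 at P21. The labels do not say which promoter or which cells drive Kir2.1, whether control littermates were used, or whether the libraries of a group are separate animals, so errors and p-values measure library-to-library spread, some of it possibly technical.

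Nephrin is best known from the kidney, where it bridges the feet of neighbouring podocytes and signals to actin through its cytoplasmic tail, with the Kirrel proteins as binding partners. In the olfactory system Kirrel2 and Kirrel3 are homophilic adhesion molecules of sensory axons, each binding to itself on another axon. Their levels differ between neurons that express different odorant receptors and depend on neuronal activity, and they are known to help axons of one kind sort together into glomeruli of the olfactory bulb. Kirrel (also written Kirrel1) is a broadly expressed member of the family.

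Nphs1 and Kirrel2 lie beside each other. On GRCm38 (mm10), Nphs1 (ENSMUSG00000006649) spans bases 30458315 to 30487223 of chromosome 7 on the plus strand. Kirrel2 (ENSMUSG00000036915) spans bases 30447534 to 30457690 on the minus strand. The genes run away from each other, with 625 bases between the outermost annotated starts. Kirrel (ENSMUSG00000041734) spans bases 87078593 to 87174747 of chromosome 3 on the minus strand, and Kirrel3 (ENSMUSG00000032036) bases 34485894 to 35036716 of chromosome 9 on the plus strand. All 4 are annotated as protein coding, and these spans are those of GENCODE release M21.

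The start regions of the neighbouring pair are shown because these genes share a short stretch of intergenic DNA, and that of Kirrel is shown beside them for comparison. Each window runs from 250 bases before to 50 bases after the RefSeq start, on the gene's own strand, in build GRCm38.p6. The windows are chr7:30459808-30460107 (plus strand) for Nphs1, chr7:30457466-30457765 (minus strand) for Kirrel2 and chr3:87174488-87174787 (minus strand) for Kirrel. The table used here held a window for 3 of the 4 genes, and none for Kirrel3. Capitals mark the GC box, GGGCGG.
Nphs1: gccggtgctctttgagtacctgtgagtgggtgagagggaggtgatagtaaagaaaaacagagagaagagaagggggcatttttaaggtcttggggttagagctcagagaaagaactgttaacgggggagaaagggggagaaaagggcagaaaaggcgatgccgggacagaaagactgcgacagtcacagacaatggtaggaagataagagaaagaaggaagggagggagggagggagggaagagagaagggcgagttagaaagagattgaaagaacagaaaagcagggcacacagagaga
Kirrel2: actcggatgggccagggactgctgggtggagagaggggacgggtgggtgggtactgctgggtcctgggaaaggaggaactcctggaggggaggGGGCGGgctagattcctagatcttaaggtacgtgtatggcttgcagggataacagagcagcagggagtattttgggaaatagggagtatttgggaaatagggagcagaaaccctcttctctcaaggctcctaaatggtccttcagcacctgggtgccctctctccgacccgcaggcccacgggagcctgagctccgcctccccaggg
Kirrel: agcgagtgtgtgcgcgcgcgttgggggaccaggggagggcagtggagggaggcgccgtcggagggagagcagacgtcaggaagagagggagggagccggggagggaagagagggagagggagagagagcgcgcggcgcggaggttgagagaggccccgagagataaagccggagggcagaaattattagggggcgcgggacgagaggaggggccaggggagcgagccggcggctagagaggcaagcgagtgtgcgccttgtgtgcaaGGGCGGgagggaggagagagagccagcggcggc
The windows differ in base composition, at 49.7% G and C for Nphs1, 59.7% for Kirrel2 and 69.3% for Kirrel, against a median of 52.7% over 32851 windows. Kirrel holds 28 CpG dinucleotides, Kirrel2 8 and Nphs1 6. The RefSeq start of Nphs1 lies inside the GENCODE gene, so that its window begins 1493 bases after the first GENCODE base and does not reach the intergenic stretch. The Kirrel2 window holds the run tttgggaaatagggag, 16 bases long, at positions 164 and 182 from its 5′ end.

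The windows were searched on both strands for letters bound by factors of olfactory neurons or of activity-dependent transcription. The GC box, bound by Sp factors, matched once in Kirrel2 (position 94) and once in Kirrel (position 268), and 35.7% of all windows held it. The motif TGACG, a half-site of the cAMP response element, matched once in Kirrel, and 20.8% of all windows held it. No window of the family matched the full element TGACGTCA, which contains TGACG (1.79% of all windows), the homeodomain core TAATTA (5.29%) or the palindromic core of Ebf sites, TCCC and GGGA spaced by NN (0.904%). A match or its absence describes only the letters of these windows.

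Gene counts per library ran from 8107547 to 30385151, and 1.31% to 33.5% of reads were unmapped, the most in Kir P10 replicate 2. The titles carry a prefix (cry3, cry4 or cry6) of unknown meaning, which was treated as a possible batch: P0, P3, P14 and P21 are all cry4, P5 and P10 are all cry6, and P7 holds all 3 prefixes in both genotypes. Kcnj2, the check of the labels, was higher in Kir without overlap at each of the 7 ages, and its level in counts scaled to library size (CPM) was 132 to 238 CPM in 5 Kir libraries (replicate 3 at P3, replicates 1 and 4 at P7, replicates 1 and 2 at P21), against 439 CPM or more in the others. WT P0 replicate 1 stood apart in brain neuron markers, with a summed level of 223 TPM (reads scaled for transcript length and library size) over 11 genes, against 39.8 to 55.9 TPM in the other 3 WT P0 libraries. WT P0 replicate 3 has P3 in its stage label and P0 in its title, and was kept at P0 because the series design lists 4 wild-type replicates of that age.

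Kirrel2 was the most abundant member, Kirrel3 and Kirrel stood at intermediate levels, and Nphs1 was the scarcest. Averaged over the 47 libraries, their levels per transcript length were 175 TPM for Kirrel2, 25.9 TPM for Kirrel3, 22.4 TPM for Kirrel and 9.31 TPM for Nphs1. Kirrel2 thus stood above 95.8% of the 19927 genes that passed the count filter, and Nphs1 above 45.9%. All 4 genes passed this filter.

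**Figure D1:**
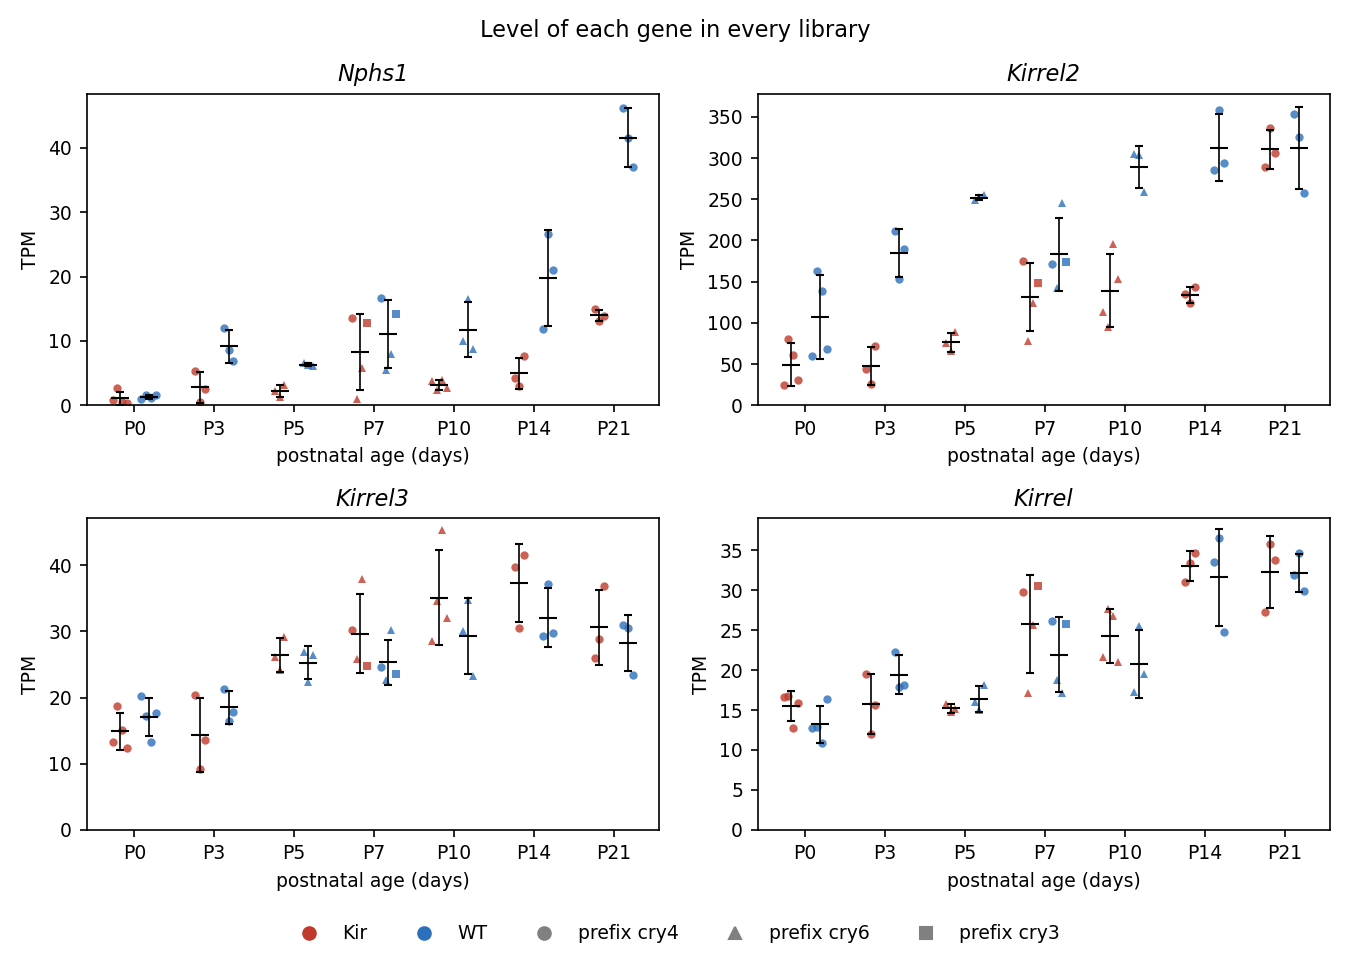
Level (TPM) of Nphs1, Kirrel2, Kirrel3 and Kirrel in each of the 47 libraries by postnatal age, Kir left of WT at each age, with the group mean (dash) and SD (bar). Symbols give the title prefix. Nphs1 is at 13.1 to 14.9 TPM in Kir and 37.1 to 46.1 TPM in WT at P21, while Kirrel2 is lower in Kir without overlap at P3, P5, P10 and P14 and overlaps WT at P0, P7 and P21.

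All 4 genes rose after birth in both genotypes, Nphs1 by far the most. In Kir, Nphs1 had 14.9, 13.1 and 13.8 TPM at P21 against 0.82, 2.63, 0.50 and 0.39 TPM at P0. In WT it had 46.1, 41.6 and 37.1 TPM at P21 against 1.0, 1.59, 1.14 and 1.67 TPM at P0. Every P21 library lay above every P0 library of its genotype. The log2 fold change of P21 over P0 was 4.60 ± 0.35 (SE) in Kir (edgeR adjusted p = 1.04e-12) and 4.796 ± 0.321 in WT (edgeR adjusted p = 4.56e-14). Nphs1 is close to the floor at P0, and the size in Kir varied with the unit, the fit and the number added to TPM. On log2(TPM + 1) the change was 2.96 ± 0.37 in Kir (limma adjusted p = 9.89e-08) and 4.19 ± 0.37 in WT (limma adjusted p = 8.89e-11). On log2(TPM + 0.1) it was 3.92 ± 0.53 in Kir and 4.87 ± 0.53 in WT.

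Kirrel2 had 289, 336 and 306 TPM in Kir at P21 against 25.2, 80.7, 61.3 and 30.5 TPM at P0. In WT it had 353, 326 and 257 TPM at P21 against 59.7, 163, 139 and 68.5 TPM at P0. The ages did not overlap in either genotype. The log2 fold change was 2.55 ± 0.34 in Kir (edgeR adjusted p = 1.61e-07) and 1.48 ± 0.33 in WT (edgeR adjusted p = 0.000334).

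Kirrel3 had 26.0, 28.9 and 36.9 TPM in Kir at P21 against 13.3, 18.8, 15.1 and 12.3 TPM at P0, and rose by a log2 fold change of 1.12 ± 0.17 (edgeR adjusted p = 1.09e-06). In WT it had 30.9, 30.6 and 23.4 TPM at P21 against 20.2, 17.2, 13.2 and 17.7 TPM at P0, a log2 fold change of 0.67 ± 0.17 (edgeR adjusted p = 0.000989). The ages did not overlap in either genotype. The highest WT P0 value is that of replicate 1, the library with brain neuron markers, and without it the WT log2 change was 0.85 ± 0.17. The part of that library in the Kirrel3 change was otherwise not tested.

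Kirrel had 27.3, 35.9 and 33.8 TPM in Kir at P21 against 16.6, 16.7, 12.7 and 15.9 TPM at P0, and rose by a log2 fold change of 0.94 ± 0.13 (edgeR adjusted p = 4.60e-07). In WT it had 32.0, 34.7 and 29.9 TPM at P21 against 12.7, 12.9, 10.9 and 16.3 TPM at P0, a log2 fold change of 1.14 ± 0.13 (edgeR adjusted p = 9.54e-09). All 4 genes were thus called higher at P21 in both genotypes, where 22.9% of all tested genes were called higher in Kir and 23.9% in WT. Likewise all 4 had P21 values above all P0 values in TPM, as did 20.9% of all tested genes in Kir and 23.9% in WT.

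The rise was not equally spread over the ages. Ordered by mean TPM, Nphs1 in WT ran P0, P5, P3, P7, P10, P14, P21, at 1.35, 6.30, 9.14, 11.1, 11.8, 19.8 and 41.6 TPM. P0 and P5, P5 and P3, and P14 and P21 did not overlap, while the neighbours between P3 and P14 in that order did. The order came from these same means, and the share of all tested genes with such gaps between ages was not counted. In TPM the largest step between neighbours in that order was from P14 to P21. Kirrel2 in WT had 249, 252 and 255 TPM at P5 but 171, 142, 246 and 173 TPM at P7, below every P5 library, and its P10, P14 and P21 libraries overlapped at 257 to 359 TPM. In Kir, Kirrel2 was at 124, 135 and 143 TPM at P14, and no Kir library of P14 or P10 reached the lowest Kir P21 library. Because P5 and P10 differ from the other ages in prefix, ages of unlike prefix cannot be told apart from the prefix in these TPM values.

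Kirrel3 was highest in mean TPM at P14 in both genotypes, at 37.3 TPM in Kir and 32.1 TPM in WT, and overlapped P21 there. Its P3 and P5 libraries did not overlap in WT (16.5 to 21.4 TPM at P3, 22.4 to 26.9 TPM at P5). This was the only such gap between neighbours in its WT order, and P3 is cry4 while P5 is cry6. Age and prefix thus cannot be told apart in it, and the share of all tested genes with such a gap was not counted. Kirrel had no gap between neighbours in its WT order. In Kir, its P0, P3 and P5 libraries at 11.98 to 19.5 TPM lay below its P10 libraries at 21.02 to 27.6 TPM.

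Nphs1 was lower in Kir at each age in the fitted values, and Kirrel2 at each age but with a difference near 0 at P21. At P0, Nphs1 had 8, 18, 12 and 10 counts in Kir against 26, 22, 35 and 47 counts in WT. In CPM the genotypes did not overlap there (0.73 to 1.67 CPM in Kir, 1.94 to 4.08 CPM in WT), as was so for 1.04% of tested genes with Kir lower. In TPM they did, at 0.39 to 2.63 TPM in Kir and 1.0 to 1.67 TPM in WT. The highest Kir value belongs to replicate 2, whose ratio of TPM to CPM was 1.57, against a median of 0.551 over all libraries.

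At P3, Nphs1 had 5.33, 0.55 and 2.55 TPM in Kir and 11.9, 8.54 and 6.94 TPM in WT. At P5 it had 2.25, 1.24 and 3.11 TPM in Kir and 6.51, 6.32 and 6.06 TPM in WT. At P10 it had 3.77, 2.40, 3.86 and 2.73 TPM in Kir and 10.04, 16.6 and 8.71 TPM in WT. At all 3 of these ages each Kir library lay below each WT library.

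At P14, Nphs1 had 4.24, 2.99 and 7.64 TPM in Kir and 11.8, 26.5 and 21 TPM in WT. At P21 its Kir libraries, at a mean of 13.96 ± 0.90 TPM (SD, n = 3), were at 33.6% of the WT mean of 41.6 ± 4.54 TPM (n = 3). Again the genotypes did not overlap at either age. In all, Nphs1 was lower in Kir without overlap in TPM at P3, P5, P10, P14 and P21, where the shares of tested genes with that pattern were 10.2%, 11.6%, 1.62%, 6.95% and 8.58%. At P0 and P7, where Nphs1 and Kirrel2 overlapped in TPM, these shares were 0.818% and 0.773%.

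Kirrel2 had 43.9, 26.4 and 72.4 TPM in Kir and 212, 154 and 190 TPM in WT at P3. At P5 it had 75.2, 65.6 and 88.6 TPM in Kir, against 249, 252 and 255 TPM in WT. At P10 it had 113, 95.4, 195 and 153 TPM in Kir, and 305, 303 and 259 TPM in WT. At P3, P5 and P10 every Kir library lay below every WT library. Kir P10 replicates 1 and 2, the lowest of that group, had 17.7% and 33.5% unmapped reads, against 1.72% and 1.47% in replicates 3 and 4. The part of this in the Kirrel2 level was not tested.

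The same held at P14, with 135, 124 and 143 TPM in Kir and 285, 359 and 294 TPM in WT. At P0 the genotypes overlapped, at 25.2 to 80.7 TPM in Kir and 59.7 to 163 TPM in WT. At P21 they overlapped with nearly equal means, 310 ± 24.0 TPM in Kir and 312 ± 49.4 TPM in WT (SD, n = 3 each). Of the Kir P21 libraries, replicate 3 had the high Kcnj2 level of 1050 CPM. Its Kirrel2 level of 306 TPM lay between those of replicates 1 and 2, which were low in Kcnj2. At P3, Kir replicate 3, low in Kcnj2 at 132 CPM, had the highest Kirrel2 level of its group. It had 72.4 TPM, against 43.9 and 26.4 TPM in replicates 1 and 2. Whether Kirrel2 follows the Kcnj2 level among Kir libraries of an age was not tested.

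At P7 the genotypes overlapped for both genes. Nphs1 had 13.5, 1.05, 5.79 and 12.8 TPM in Kir and 16.7, 5.49, 8.0 and 14.2 TPM in WT, in the order cry4, cry6, cry6, cry3. Kirrel2 had 176, 78.3, 125 and 149 TPM in Kir and 171, 142, 246 and 173 TPM in WT, in the same order. In both genotypes the cry6 libraries were the lowest in Nphs1. The Kir libraries with the cry4 and cry3 prefixes were also those low in Kcnj2, at 146 and 173 CPM against 903 and 1140 CPM in the cry6 libraries, so prefix and Kcnj2 level cannot be told apart within Kir at P7.

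**Figure D2:**
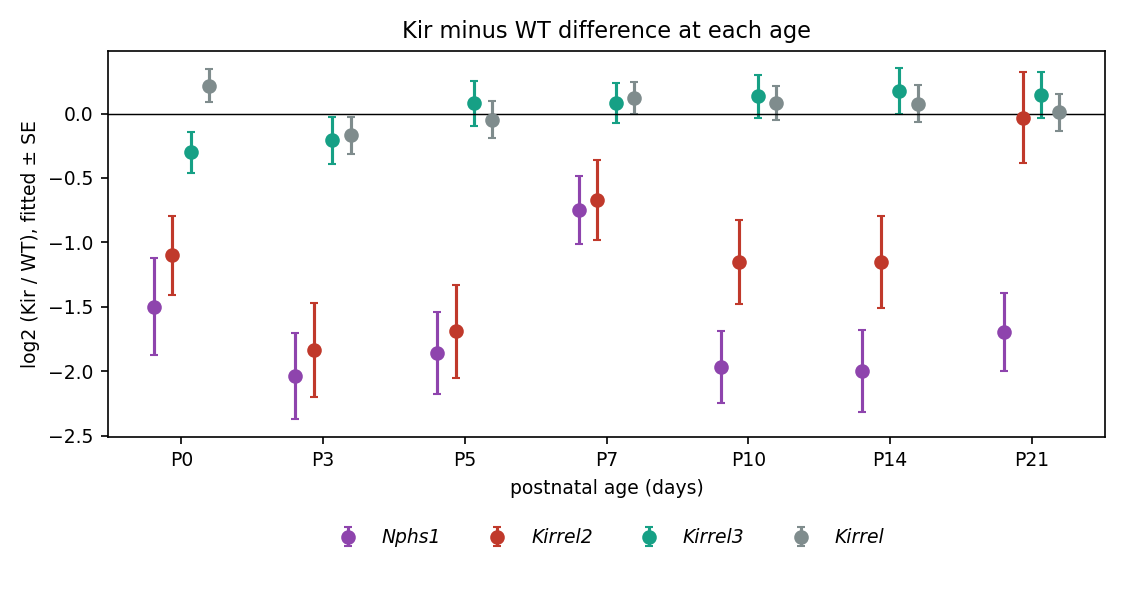
Fitted Kir minus WT difference (log2) of the 4 genes at each postnatal age, with SE bars from the edgeR fit of all 47 libraries. Nphs1 lies between -2.04 and -0.75 and Kirrel2 between -1.83 and -0.03, while Kirrel3 and Kirrel stay between -0.30 and 0.22.

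The fitted log2 difference, Kir minus WT, of Nphs1 was -1.498 ± 0.376 at P0, -2.04 ± 0.34 at P3, -1.86 ± 0.32 at P5, -0.75 ± 0.27 at P7, -1.97 ± 0.28 at P10, -2.00 ± 0.32 at P14 and -1.70 ± 0.30 at P21. That of Kirrel2 was -1.10 ± 0.31, -1.83 ± 0.36, -1.69 ± 0.36, -0.67 ± 0.31, -1.15 ± 0.33, -1.15 ± 0.36 and -0.03 ± 0.35 at the same ages. Averaged over ages, with each age weighted equally, the base values are -1.69 ± 0.12 for Nphs1 and -1.09 ± 0.13 for Kirrel2. Within the cry4 libraries of P0, P3, P14 and P21 alone they were -1.81 ± 0.15 and -1.03 ± 0.19, and within the cry6 libraries of P5, P7 and P10 alone -1.67 ± 0.19 and -1.31 ± 0.14. Without the 5 Kir libraries low in Kcnj2 they were -1.81 ± 0.15 and -1.23 ± 0.14.

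Kirrel and Kirrel3, the members on other chromosomes, overlapped between the genotypes at all 7 ages in TPM. Their averaged log2 differences were 0.04 ± 0.05 and 0.01 ± 0.06. Across all tested genes 10.4% were called in the averaged comparison, 7.38% lower and 3.03% higher in Kir. Kirrel had 117% of its WT mean in Kir at P0, 80.8% at P3 and 100% at P21, and Kirrel3 87.1%, 77.4% and 108%.

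Whether the rise from P0 to P21 itself differed between genotypes was tested as a difference of changes. For Kirrel2 the Kir rise was larger by 1.07 ± 0.47 on the log2 scale (edgeR unadjusted p = 0.0285, adjusted p = 0.618), so it was not called. The corresponding values were -0.20 ± 0.50 for Nphs1 (edgeR adjusted p = 0.983), -0.21 ± 0.19 for Kirrel (adjusted p = 0.920) and 0.44 ± 0.24 for Kirrel3 (adjusted p = 0.754). The value of Nphs1 was 0.11 without Kir P0 replicate 2, the library with the high ratio of TPM to CPM, and -1.23 ± 0.53 on log2(TPM + 1) (limma adjusted p = 0.717). In this comparison 0.251% of all tested genes were called.

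A test over all 7 ages for a genotype difference that varies with age called none of the 4 genes, at edgeR adjusted p = 0.745 for Nphs1, 0.621 for Kirrel2 and 0.99999 for both Kirrel and Kirrel3. The unadjusted p-values were 0.0307 for Nphs1 and 0.0181 for Kirrel2. It called 51 genes, 0.256% of those tested. A smaller Kirrel2 difference at P21 than at P3 is therefore a description of these libraries.

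**Figure D3:**
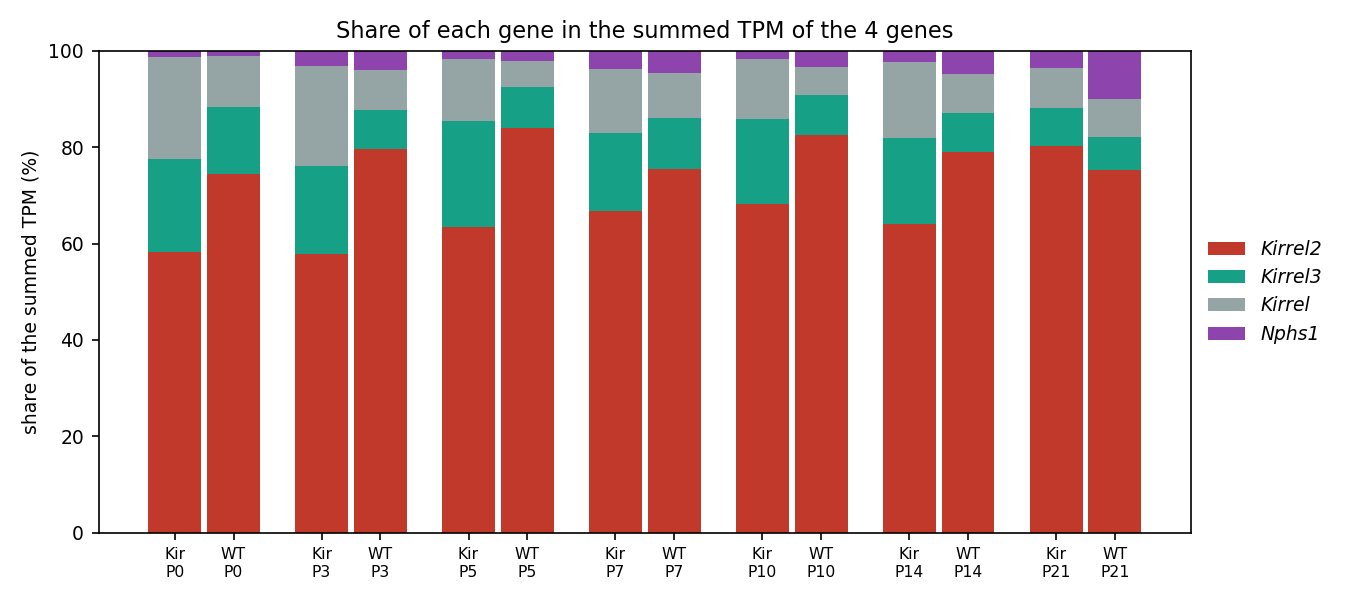
Mean share (%) of each gene in the summed TPM of Nphs1, Kirrel, Kirrel2 and Kirrel3, per group, Kir left of WT at each age. Kirrel2 makes up 63.4% in Kir and 84.0% in WT at P5 but 80.2% and 75.2% at P21, and Nphs1 makes up 3.63% in Kir and 10.1% in WT at P21.

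These levels changed the make-up of the family. The summed TPM of the 4 genes was 120 ± 15.2 in Kir and 300 ± 4.73 in WT at P5 (SD, n = 3 each), and 387 ± 28.7 in Kir and 414 ± 59.5 in WT at P21 (n = 3 each). At P5, Kirrel3 made up 22.0 ± 0.68% of that sum in Kir and 8.42 ± 0.76% in WT. At P21 it made up 7.90 ± 1.34% in Kir and 6.83 ± 0.21% in WT. Kirrel2 exceeded Kirrel3 by 1.86 ± 0.14 on the log2 scale of TPM in Kir at P14 and by 3.29 ± 0.02 in WT, and by 3.36 ± 0.26 in Kir and 3.46 ± 0.05 in WT at P21.

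Nphs1 and Kirrel2 did not keep a fixed ratio. At P0, Nphs1 was at 2.15 ± 1.29% of the Kirrel2 TPM in Kir and at 1.48 ± 0.74% in WT (SD, n = 4 each). At P21 it was at 4.53 ± 0.63% in Kir and at 13.4 ± 0.87% in WT (n = 3 each). The ratio thus was similar at birth within its spread, and at P21 the ranges, 3.91% to 5.17% in Kir and 12.8% to 14.4% in WT, did not overlap. At P3, P5, P7, P10 and P14 the ranges overlapped. The Kir mean was the higher at P3 (5.92% against 4.95%) and P5 (2.80% against 2.50%), and the lower at P7, P10 and P14.

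**Figure D4:**
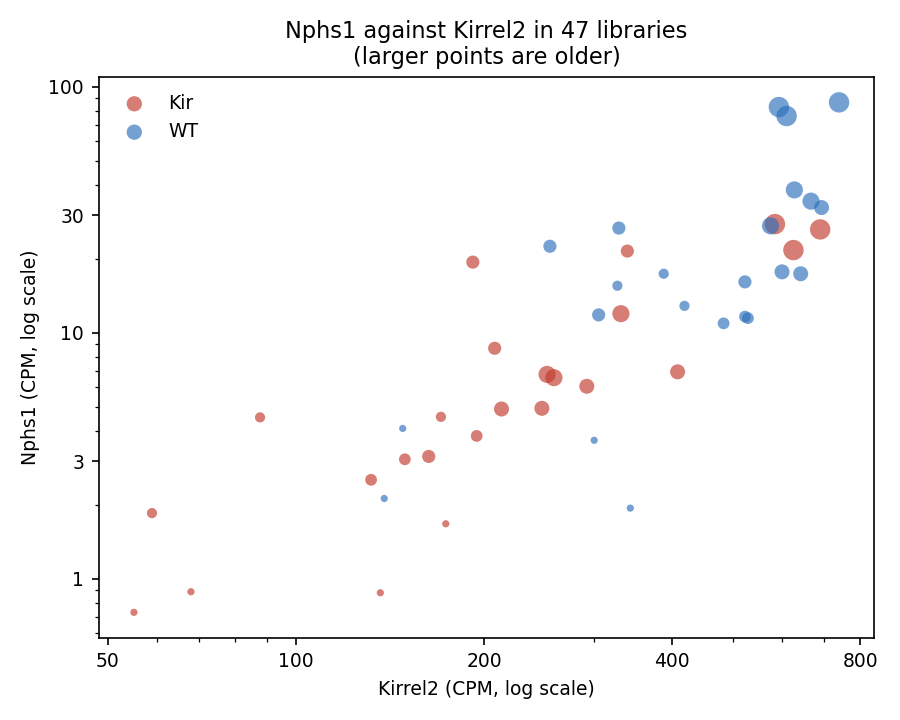
Nphs1 (CPM) against Kirrel2 (CPM) in the 47 libraries, both on log scales, Kir in red and WT in blue, with larger points for older ages. At P21 both genotypes lie at 584 to 740 CPM of Kirrel2, but Nphs1 is at 21.7 to 27.6 CPM in Kir and 76.0 to 86.3 CPM in WT.

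Across the 47 libraries log2 CPM of Nphs1 and Kirrel2 had a Pearson correlation of 0.84 (Spearman 0.84), a description over points that share age, genotype and depth. After centring within group and prefix, over the 43 libraries with at least 1 partner, it was 0.50 (Spearman 0.54). Among all tested genes Kirrel2 had rank 136 in likeness to Nphs1 in levels, and rank 631 after centring. The other pairs had centred correlations of -0.06 (Kirrel and Kirrel2) to 0.48 (Kirrel and Kirrel3).

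The 5 genes with the levels most like Nphs1 over the 47 libraries were Gm6878, Dyrk4, S100a5, Slc8a1 and Olfr1348, at correlations of 0.91 to 0.92. S100a5 is a calcium-binding protein of mature sensory neurons and Slc8a1 a sodium-calcium exchanger. After centring Kif17, a kinesin motor, came first at 0.78, with 2210016L21Rik at 0.76 and B3gnt8 at 0.72. Most like Kirrel2 in levels were Kcnmb3, Kcng1, Scn4b, Pcp4l1 and Olfm1, at 0.92 to 0.95. Of these, Kcnmb3, Kcng1 and Scn4b encode accessory or modifier subunits of potassium and sodium channels. After centring they were Scn4b (0.89), Rasgrp4 (0.88) and Ccdc184 (0.86).

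Most like Kirrel3 in levels were Sdc3, Sdk1, Zfand2a, Efna3 and Agpat3, at 0.90 to 0.92, among them the adhesion protein sidekick 1 (Sdk1) and ephrin A3 (Efna3). After centring they were Dusp8 (0.88), Pfkm (0.88) and Dlg4 (0.86), the last a membrane-associated scaffold protein. Most like Kirrel were Otoa, Slc4a8, Fer1l5, Muc2 and Sec14l5, at 0.90 to 0.92, and after centring Tenm3 (0.72), Otoa (0.71) and Man2a2 (0.71). Muc2, a mucin, was also on the list of sustentacular (supporting) cell markers. No gene was common to the lists of 2 members.

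Genes of mature olfactory sensory neurons were lower in Kir on average over ages, as were Nphs1 and Kirrel2. Over the 47 libraries the level of these genes followed all members about equally closely. The correlations were 0.85 for Nphs1, 0.83 for Kirrel2, 0.83 for Kirrel and 0.80 for Kirrel3, over points that share age. Those with sustentacular (supporting) cell markers were 0.75 for Nphs1, 0.68 for Kirrel2, 0.79 for Kirrel and 0.78 for Kirrel3. Kirrel3 had -0.86 with endothelial markers. These correlations thus do not single out mature neurons, and the part of age in them was not tested. All 10 of 10 mature neuron markers were called lower in Kir in the averaged comparison, where 7.38% of all tested genes were called lower. The median log2 difference of the markers was -0.42. Among them were Omp at -0.54 ± 0.07 (edgeR adjusted p = 2.03e-07) and Pde1c at -0.50 ± 0.05 (edgeR adjusted p = 8.23e-10). The summed level of the 10 markers ranged from 546 to 5157 TPM in Kir and from 963 to 6257 TPM in WT. None of the 10 was at 0 in any library. In bulk tissue, fewer cells of a type and less RNA per cell cannot be told apart.

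The mean log2 CPM of these 10 markers was lower in Kir at all 7 ages, with differences of -0.70 to -0.27 and a mean of -0.41, so a gene equal in both genotypes comes out higher in Kir by that much when set against them. The group mean of Nphs1 set against the markers was lower in Kir at 7 of 7 ages, with a mean difference of -1.27. That of Kirrel2 was lower at 6 of 7 ages, with a mean difference of -0.71. At P21 the Kirrel2 difference was 0.24 beside a marker difference of -0.27. For both genes the libraries of the genotypes overlapped at P0 and P7. Kirrel at a mean of 0.45 and Kirrel3 at 0.42 were close to the size of the mean marker difference. Setting a gene against the markers is a description, and the part of the marker difference in the member differences was not tested.

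Of the other cell type lists, 5 of 5 macrophage markers were called higher in Kir (median 0.53). Their summed levels were 48.6 to 132 TPM in Kir and 45.2 to 106 TPM in WT. Of all tested genes 3.03% were called higher and 7.38% lower in this comparison. On the list of brain neuron markers 2 of 8 tested genes were called lower, Slc17a6 and Tbr1. Slc17a6 was at 15.9 to 123 TPM over all libraries (median 59.8 TPM), and Tbr1 at 0.33 to 13.3 TPM (median 1.5 TPM). Which cells the Slc17a6 reads came from was not tested, so its call is not one of brain neurons. No marker of immature neurons (8 tested), progenitors (7), sustentacular cells (5), fibroblasts (6), endothelium (6) or vomeronasal neurons (3) was called in the averaged comparison by edgeR. Of the podocyte markers 3 of 5 were tested (Podxl, Synpo and Ptpro, all also on the list of nephrin partners below) and none was called. In these 7 lists together, 6 of 38 tested genes had an unadjusted edgeR p under 0.05, as had 4357 of all 19927 tested genes. Of all tested genes 10.4% were called. Over all libraries Podxl was at 19.6 to 50.1 TPM, Synpo at 6.75 to 36.1 TPM, Ptpro at 0.33 to 11.8 TPM and Wt1, a transcription factor of podocytes, at 0 to 0.41 TPM.

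The wider list of nephrin partners and regulators (scaffolds, adaptors, kinases and actin-binding proteins) held genes that rose and genes that fell after birth. Of 28 genes 24 were tested. In Kir, 4 were called higher and 8 lower at P21 than at P0. Of all tested genes 22.9% were called higher and 25.8% lower in Kir. The median log2 change in Kir was -0.12 for the list and -0.04 for all tested genes. In WT, 4 were called higher and 10 lower, where 23.9% of all tested genes were called higher and 26.7% lower. The WT median was -0.17 for the list and -0.05 for all tested genes.

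The genes called higher in WT were Magi2 at 1.16 ± 0.15 (edgeR adjusted p = 7.33e-08), Prkcz at 0.61 ± 0.11, Pard6a at 0.57 ± 0.15 and Magi1 at 0.54 ± 0.14. Magi1 and Magi2 are membrane scaffold proteins, and Prkcz and Pard6a belong to the cell polarity complex. Among those called lower were Pik3r1, a regulatory subunit of phosphatidylinositol 3-kinase, at -1.23 ± 0.14, Actn4, an actin-binding alpha-actinin, at -0.65 ± 0.13, and Synpo, an actin-associated protein, at -0.84 ± 0.20. Ptpro, a receptor tyrosine phosphatase, was at -3.03 ± 0.62, and at -0.86 ± 0.31 without WT P0 replicate 1, the library with brain neuron markers.

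In the averaged Kir minus WT comparison 2 of the 24 were called, both lower, Magi2 at -0.30 ± 0.06 (edgeR adjusted p = 0.000319) and Magi1 at -0.22 ± 0.05 (edgeR adjusted p = 0.00371), and the list median was 0.00 against 0.01 for all tested genes. With 10.4% of all tested genes called, 2 of 24 is no more than the background. Magi2 was at 9.01 ± 0.33 TPM in Kir and 11.5 ± 0.55 TPM in WT at P21 (SD, n = 3 each). The call was lost in the cry6 libraries alone for Magi2 (adjusted p = 0.0522) and Magi1 (adjusted p = 0.502), and for Magi1 also without the 5 Kir libraries low in Kcnj2 (adjusted p = 0.0801).

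The other molecules of axon sorting and guidance, all 29 tested, included many that rose after birth. In Kir, 17 were called higher and 3 lower at P21 than at P0, with a median log2 change of 0.52, and in WT 15 higher and 5 lower, with a median of 0.44. Of all tested genes 22.9% were called higher and 25.8% lower in Kir, with a median of -0.04, and 23.9% higher and 26.7% lower in WT, with a median of -0.05. Cntn4 (an immunoglobulin-family adhesion protein) rose by 1.55 ± 0.16 in WT (edgeR adjusted p = 3.52e-10), Ncam2 (a neural cell adhesion molecule) by 1.70 ± 0.18, Plxna3 (a semaphorin receptor) by 1.65 ± 0.20 and Sema7a (a membrane-anchored semaphorin) by 1.55 ± 0.19. The repellent ligands Slit2 and Sema3f, the receptor Epha4 and the protocadherin Pcdh10 fell by 0.60 ± 0.12, 0.49 ± 0.16, 1.08 ± 0.22 and 1.16 ± 0.35. On TPM, Slit2 (limma adjusted p = 0.0985) and Sema3f (limma adjusted p = 0.268) were no longer called, and without WT P21 replicate 3 neither was Pcdh10 (edgeR adjusted p = 0.0728).

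In the averaged Kir minus WT comparison 10 of these 29 genes were called lower and 0 higher, with a median of -0.14. Of all tested genes 7.38% were called lower, and the median of all was 0.01. This list, like that of nephrin partners, was chosen with earlier results of these data known. Its counts and p-values in this comparison are therefore a description. The smallest adjusted p-values were those of Sema7a at -0.77 ± 0.08 (edgeR adjusted p = 9.33e-10), Epha5 at -0.66 ± 0.07 (adjusted p = 1.91e-08), Epha7 at -0.49 ± 0.06 (adjusted p = 2.14e-08) and Cntn4 at -0.30 ± 0.06 (adjusted p = 0.000387). Sema7a was at 17.3 ± 3.82 TPM in Kir and 29.98 ± 3.47 TPM in WT at P0 (SD, n = 4 each), and at 79.4 ± 6.73 TPM in Kir and 97.7 ± 31.7 TPM in WT at P21 (n = 3 each). Within the cry4 libraries 5 were called lower, as were 653 of all 19055 genes tested there. Within the cry6 libraries 3 were called lower, as were 330 of all 20648 genes tested there. Cntn4 was not called in the cry6 libraries (edgeR adjusted p = 0.230).

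**Figure D5:**
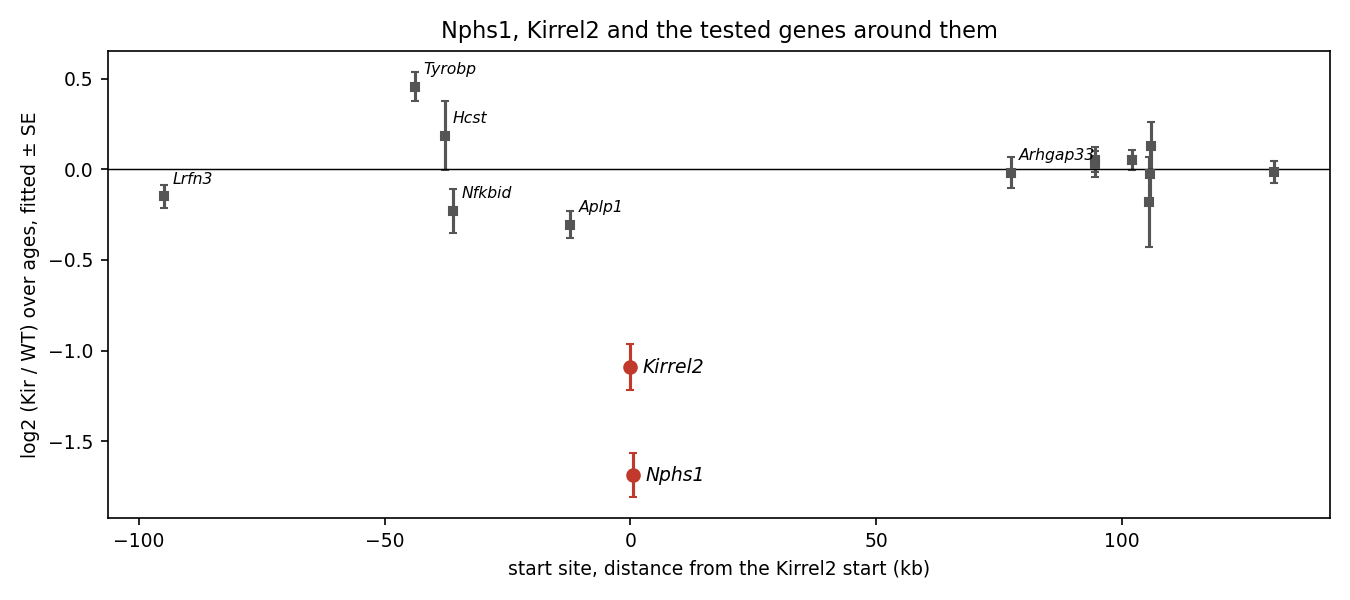
Averaged Kir minus WT difference (log2, fitted ± SE) of Nphs1, Kirrel2 (red) and the 13 tested genes within 100000 bases of either (grey), by the distance of the gene's start from the Kirrel2 start in kb. The tested neighbours lie between -0.31 and 0.46, above Kirrel2 at -1.09 and Nphs1 at -1.69.

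Of 23 other annotated genes whose span lies within 100000 bases of Nphs1 or Kirrel2, 13 were tested. Their averaged Kir minus WT log2 differences ran from -0.31 to 0.46, with a median of -0.01. Aplp1, a membrane protein of the amyloid precursor family next to Kirrel2, was lower at -0.31 ± 0.07 (edgeR adjusted p = 0.00316), and at -0.32 within the cry4 libraries alone (adjusted p = 0.0675) and -0.36 within the cry6 libraries alone (adjusted p = 0.0716), where it was not called. Tyrobp, a signalling adaptor of myeloid cells, was higher at 0.46 ± 0.08 (edgeR adjusted p = 8.25e-05), as were the macrophage markers above, and was at 0.32 within the cry6 libraries alone, where it was not called (adjusted p = 0.103).

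From P0 to P21 in WT, Aplp1 rose by 1.14 ± 0.19 (edgeR adjusted p = 4.42e-06) and Lin37, a subunit of a cell cycle repressor complex, fell by 0.43 ± 0.15 (edgeR adjusted p = 0.0136). Lin37 was not called on log2(TPM + 1) (limma adjusted p = 0.0677), without WT P21 replicate 1 (edgeR adjusted p = 0.0664) or without WT P21 replicate 2 (edgeR adjusted p = 0.0763). An antisense gene lies over Nphs1 (Nphs1os, 0 to 8 counts per library) and another at Kirrel3 (Kirrel3os, 0 to 7 counts). No source used here gives the strand setting of the counting, so reads of the antisense partners cannot be told apart from those of Nphs1 and Kirrel3.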

How the data were processed

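Olfactory epithelium RNA of 47 libraries was used in 2 deposited tables. The authors' table of counts holds whole-number reads per gene, and 4 lines that name no gene were left out throughout: unmapped (1.31% to 33.5% of a library), multiply mapped (5.17% to 20.6%), outside genes (3.79% to 12.3%) and ambiguous (2.91% to 3.80%). The other deposited table holds TPM, scaled for transcript length, so it serves to compare levels between genes. The submitters' processing notes name RSEM, STAR 2.6.1c, bcl2fastq 2.18 and build mm10, per the labels, and give no role or setting for them.

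The tests on counts used edgeR 4.0.16 in R 4.3.3, with TMM scaling, filterByExpr (19927 genes kept), robust quasi-likelihood F tests, two-sided, in a single fit with a mean per group and the title prefix as covariate. Adjustment was by Benjamini-Hochberg over all genes tested, and a gene was called where its adjusted p was below 0.05. Log2 differences carry their SE. CPM are on TMM-scaled library sizes, and log2 CPM used a prior count of 2. Groups came from the sample titles. No replicates were duplicates: over 57 pairs, counts differed by 6.63 to 104 times the variance of sampling.

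Alternatives were DESeq2 1.42.0 (test, and size factors alone), upper-quartile factors, other filters (none, or 1 CPM in 10 libraries), no prefix term, each prefix alone, limma 3.58.1 on log2(TPM + 1) or log2(TPM + 0.1) for genes of mean TPM 0.5 or more and without that filter, another placing of WT P0 replicate 3, a replicate block and left-out libraries. Scripts were tested on simulated counts. Promoter windows are from RefSeq (GRCm38.p6), and gene spans from GENCODE M21, to which 54495 of 54532 identifiers matched. The members, the gene lists and the libraries left out were chosen with earlier results of these data known. The text names the 4 members, of each list up to 4 called genes per direction with the smallest adjusted p (in WT for the age comparison), the 5 genes most like each member (3 after centring), and the neighbours that were called. A result on 1 podocyte marker is not reported here.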

Additional observations from a re-analysis of the deposited data

How the results depend on the processing

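The 4 members were called higher at P21 in both genotypes under all alternatives run, leave-one-out fits included. Leave-one-out fits aside, the log2 change of Nphs1 ranged from 2.96 to 4.72 in Kir and from 4.19 to 4.92 in WT, and that of Kirrel2 from 2.46 to 2.81 in Kir and from 1.38 to 1.66 in WT. Averaged over ages, Kir minus WT in these alternatives was -1.81 to -1.23 for Nphs1, -1.31 to -1.03 for Kirrel2, 0.03 to 0.06 for Kirrel and -0.05 to 0.15 for Kirrel3, and in leave-one-out fits 0.02 to 0.07 for Kirrel. No member was called in the difference of changes or in the variation with age under any alternative. The Nphs1 difference of changes ranged from -0.41 (without WT P0 replicate 4) to 0.11 (without Kir P0 replicate 2, the sole reversal) over the leave-one-out fits. Kir P10 replicates 1 and 2, left out as an alternative chosen after seeing the data, moved no count by over 1.5 times.

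Over all genes, counts moved more, and the cause was not tested. For Kir P21 versus P0, 9704 became 5582 without the 5 Kir libraries low in Kcnj2, which leaves 1 Kir P21 library. The averaged count of 2073 became 959 (cry4 alone), 579 (cry6 alone), 1032 (replicate block, cry4 libraries), 1377 (log2(TPM + 1)), 1305 (log2(TPM + 0.1)) and 1172 (TPM unfiltered). The difference of changes, 50, became 111 (DESeq2), 14 (no prefix term) and 110 (without the 5 low libraries). Variation with age, 51, became 248 (DESeq2), 10 (no prefix term), 82 (cry4 alone), 80 (TPM unfiltered), 113 (without the 5 low libraries) and 0 by edgeR in cry6 alone, with 792 genes at an unadjusted p under 0.05. Leaving out 1 library gave 18 (WT P21 replicate 2) to 60 for the difference of changes and 26 (Kir P0 replicate 3 or 4) to 253 (Kir P10 replicate 3) for variation with age. In WT, higher and lower calls were 4757 and 5321, but 4878 and 3694 on log2(TPM + 1), and 5285 and 4754 where upper-quartile factors replaced TMM.

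The replicate numbers were checked as pairs: over 13 same-numbered pairs the correlation ran from -0.19 to 0.30, with 4 over 0.1. These were all 3 pairs of P3 (0.17 to 0.29), each closest to its own number, and 1 of the 10 pairs of other ages, so the numbers were not taken to pair the libraries across the series. With the replicate block 8489 genes were called in Kir, 8921 in WT, 63 in the difference of changes and 55 in variation with age. The low counts of Nphs1 at P0, 8 to 47 per library, limit its fold changes.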
